A study of Mus musculus with 3 samples.

Results

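The genes described here are the potassium channel genes of the mouse outside the tandem-pore family: the 82 of 20368 genes whose symbol begins with Kcn, with those beginning with Kcnk left out. They cover the inward rectifiers (Kcnj), the voltage-gated channels (Kcna, Kcnb, Kcnc, Kcnd, Kcnq, Kcnh and the silent Kcnf, Kcng, Kcns and Kcnv subunits), the calcium- and sodium-activated channels (Kcnma1, Kcnn, Kcnt, Kcnu1), their auxiliary subunits (Kcnab, Kcne, Kcnip, Kcnmb), and noncoding genes named after a channel gene, 4 of which RefSeq places as Kcnd3os, Kcnq1ot1, Kcnmb4os1 and Kcnmb4os2. Their levels were measured in single cells of the prefrontal cortex of mice of both sexes on postnatal day 6, all of which had been anaesthetised that day by inhalation of sevoflurane at about 3%. Droplet libraries were made on the 10x Genomics Chromium platform, and the 3 libraries are replicates of 1 group. No unexposed group is among these samples, so no value below measures a response to the anaesthetic, and every comparison is between cell classes of the same libraries. Nothing in the labels ties a library to its own animal, culture or pool, so that p-values measure only the spread between these libraries, which may be technical.

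Potassium channels let potassium cross the membrane down its gradient, which sets the resting potential, ends action potentials and, in glia, takes up or redistributes the potassium that active neurons release. Inward rectifiers conduct near rest; voltage-gated channels open on depolarization; calcium-activated channels open when calcium enters the cell. The pore-forming subunits assemble with auxiliary subunits that change their gating or their transport to the membrane, and in the brain different cell types are known for different members: Kcnj10 for astrocytes, Kcnj8 for pericytes, and delayed rectifiers and A-type channels for neurons.

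A cell was put in a class when both genes of a pair were above 0: Aqp4 and Gja1 for astrocytes, Pdgfra and Lhfpl3 for oligodendrocyte precursors (OPC), Mag and Mobp for oligodendrocytes, Dlx1 and Sp9 for neuroblasts, the immature inhibitory neurons, Reln and Ndnf for Cajal-Retzius cells, the early reelin-secreting neurons of the cortical surface, P2ry12 and Csf1r for microglia, Cldn5 and Flt1 for endothelium, and Vtn and Higd1b for pericytes. Of 14192 cells this placed 3451 in the astrocyte class, 2760 in the OPC class, 27 in the oligodendrocyte class, 1806 in the neuroblast class, 72 in the Cajal-Retzius class, 1628 in the microglia class, 759 in the endothelium class and 904 in the pericyte class. A further 773 cells (5.45%) met 2 or more rules and were dropped as possible doublets, and 2012 (14.2%) met none. Of 4 further markers per class, not used by the rule, all 4 were highest in their own class for 7 of the classes, and 3 of 4 for OPC, since Cspg4 was highest in pericytes. The libraries held 4775, 5134 and 4283 cells with medians of 2502 to 2603 detected genes per cell; 90 barcode sequences occurred in 2 libraries, and for 13 of them both cells fell in the same class. Markers of other cell types were present in some classes: 3 smooth muscle genes summed to between 853 and 1678 CPM in the pericyte class, 3 border macrophage genes to between 484 and 771 CPM in the microglia class, and 3 erythroid genes to between 159 CPM in the lowest oligodendrocyte library and 16076 CPM in the highest endothelium library. Of 3 excitatory neuron genes, summing to 652, 574 and 652 CPM in the Cajal-Retzius class and to at most 8.81 CPM in a library of another class, Tbr1, which Cajal-Retzius cells are also known to express, made up nearly all, while Neurod2 was at 0 and Neurod6 averaged 1.78 CPM there. In the Cajal-Retzius class 3 fibroblast genes, 1 of them highest there, summed to between 45.3 and 54.5 CPM, and in pericytes to between 2.79 and 72.2 CPM. Astrocytes had 2 ependymal genes, both highest there, that summed to 140, 25.0 and 8.24 CPM. Leukocyte genes, 3 in number, summed to 59.3, 3.98 and 4.76 CPM in microglia. The 3 genes of dividing cells summed to between 289 and 321 CPM in Cajal-Retzius cells, 441 and 713 CPM in microglia, 421 and 479 CPM in OPC and 238 and 369 CPM in pericytes. In Cajal-Retzius cells 1 of the 3 was at 0 and 1 was higher than in any other class. The sums of these 3 genes in neuroblasts are given beside the result they touch. The part of these in the results was not tested, except where values without the pericyte class cells with smooth muscle genes are given.

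Levels are given in CPM: the authors' corrected counts, set to an equal sum per cell and averaged over the cells of a class in each library, always in the order of libraries 1, 2 and 3. They are compared within a gene across classes and not between genes. In 28 of the 82 genes at least 1 class averaged 50 CPM or more, in 32 the highest class lay between 5 and 50 CPM, and in 22 it lay below 5 CPM. Kcne2 was at 0 in every class, and 21 genes were above 0 in fewer than 50 cells. The test across classes needed an average of at least 5 CPM over the classes, which 36 of the 82 genes reached and 46 did not. Among those 36, the highest of the 7 classes that entered the main test, which left out the 27 oligodendrocytes, was Cajal-Retzius in 19, astrocyte in 5, OPC in 5, pericyte in 4, endothelium in 2, neuroblast in 1 and microglia in 0. The 36 are not a sample of the whole family: a gene with a high level in a single class passed the filter through that class.

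**Figure D1:**
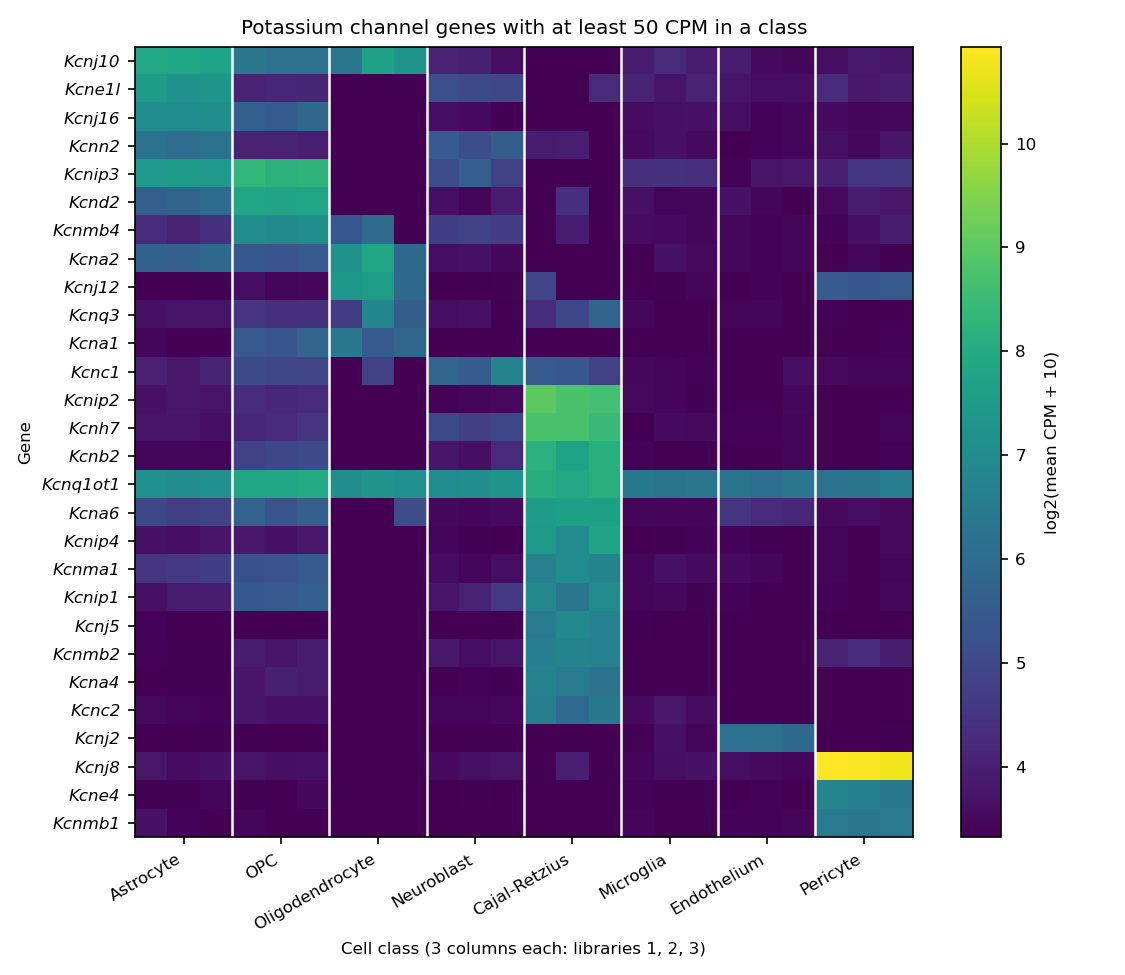
Level of the 28 potassium channel genes that average at least 50 CPM in a class, as log2(mean CPM + 10), with genes in rows and, for each of the 8 cell classes, 3 columns for libraries 1, 2 and 3. Of these genes 12 reach 50 CPM in the Cajal-Retzius columns and 1, Kcnq1ot1, in the microglia columns.

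Each class was compared with the mean of the other classes with limma on log2(CPM + 10), and a gene was called when its Benjamini-Hochberg adjusted p over all genes tested was below 0.05 and its log2 difference was at least 1 in size. In Cajal-Retzius cells 20 of the 36 potassium channel genes were called higher, where 17.4% of all 11927 genes tested were, and 6 were called lower, where 14.5% of all genes were. Some of the 20 passed the 5 CPM filter only through Cajal-Retzius cells. Kcnip2, Kcnb2 and Kcnip4, for example, averaged 2.39, 4.57 and 1.39 CPM over the other 6 classes. The part of the filter in this count was not tested. In OPC 14 were called higher and 1 lower, where 10.8% and 3.91% of all genes were. In astrocytes 7 were called higher and 3 lower, where 10.1% and 4.65% of all genes were. In pericytes 4 were called higher and 10 lower, where 8.85% and 6.84% of all genes were, and in endothelium 2 were higher and 14 lower, where 11.2% and 12.3% of all genes were. Neuroblasts had 2 higher and 4 lower, where 6.98% and 11.7% of all genes were, close to the background in both directions with 10 CPM added. With 1 CPM added instead, 22 genes (61.1%) were called in neuroblasts in either direction, where 36.9% of all genes were. In microglia 0 were higher and 9 lower, where 8.13% and 14.6% of all genes were. Counting both directions, 26 genes were called in Cajal-Retzius cells (31.9% of all genes), 15 in OPC (14.7%), 10 in astrocytes (14.7%), 14 in pericytes (15.7%), 16 in endothelium (23.5%), 6 in neuroblasts (18.6%) and 9 in microglia (22.8%). When the log values were centred on the median gene of each class, 1 gene was lower in microglia, neuroblasts had 3 higher and 1 lower, and endothelium had 2 higher and 8 lower. OPC then had 10 higher and 1 lower, and Cajal-Retzius cells 18 higher and 8 lower. Astrocytes stayed at 7 higher and 3 lower, and pericytes at 4 higher and 10 lower. The median log2 difference of the 36 genes was 1.21 in Cajal-Retzius cells, 0.46 in OPC, -0.38 in astrocytes, -0.44 in neuroblasts, -0.75 in pericytes, -0.78 in microglia and -0.84 in endothelium, beside medians over all genes of 0.02, 0.17, -0.03, -0.20, -0.07, -0.36 and -0.23 in the same order. Cajal-Retzius cells also had the most detected genes per cell, a median of 3334.5 beside 1866 to 2846 in the other classes, and the part of this in their count was not tested. A gene that is high in 1 class raises the mean it is set against in every other class, so that Kcnj8, the pericyte gene, was called lower in each of the other 6 classes of the fit.

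**Figure D2:**
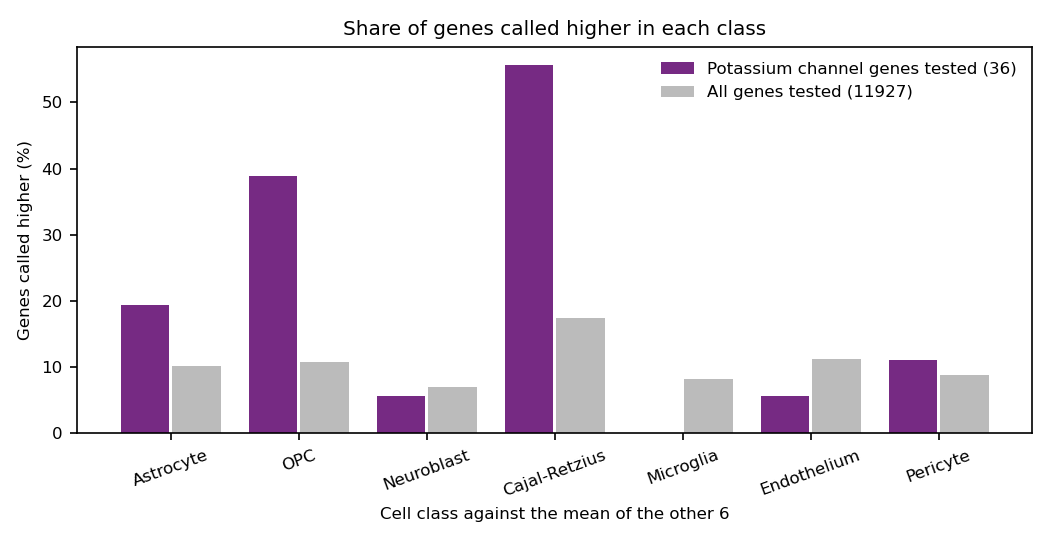
Percentage of genes called higher in each class against the mean of the other 6 classes, for the 36 potassium channel genes tested (purple) and for all 11927 genes tested (grey). The purple bar reaches 55.6% in Cajal-Retzius cells and 38.9% in OPC, and is at 0 in microglia.

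Among the inward rectifiers, Kcnj8, the pore of the ATP-sensitive channel of vascular mural cells, had the largest log2 difference of any potassium channel gene tested in any class. Pericytes had 1941, 1901 and 1728 CPM, while the mean over each of the other 7 classes was at most 2.98 CPM, in astrocytes. No library of any other class came near those of pericytes, and the log2 difference from the other classes was 7.25 ± 0.11 (SE; limma, adjusted p = 7.61e-19). The gene was detected in 93.6% of pericytes (exact 95% interval 91.8 to 95.1%, counting error only) and in 1.17% of microglia (0.704 to 1.82%), with medians of 2492.5 and 1892.5 detected genes per cell. Abcc9, the sulfonylurea receptor that forms the regulatory part of the channel with Kcnj8, had 844, 752 and 690 CPM in pericytes and at most a mean of 4.58 CPM in another class, a log2 difference of 6.05 ± 0.12 (limma, adjusted p = 9.95e-18). Both genes were detected in the same cell in 85.5%, 85.7% and 79.1% of the pericytes of the 3 libraries. Abcc9 was found in 91.3%, 92.5% and 83.9% of pericytes with Kcnj8 and in 20%, 23.8% and 13.6% of the few without it. Within the pericyte class, cells with Acta2, Tagln or Myh11 above 0, the smooth muscle genes, averaged 789 ± 131 CPM of Kcnj8 and 318 ± 113 CPM of Abcc9, and cells without any of them averaged 2171 ± 74.7 and 893 ± 59.4 CPM (SD, n = 3 libraries). In every library the cells without these genes had the higher level of both.

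Kcnj8 and Abcc9 are neighbours on chromosome 6, with 16247 bases between them in GRCm38.p6, the RefSeq build of the tables used here, which is the mm10 build named in the submitters' processing notes. Their promoters are shown because both genes were high in the same class, and those of Kcnj10 and Kcnj2 because each of these inward rectifiers was highest in another class. Each sequence runs 5′ to 3′ on the strand of its gene, from 250 bases before to 50 bases after a RefSeq start. The Abcc9 window lies inside the gene, whose outermost base on that side is 142702766, so it does not cover the outer start. Capitals mark matches, on either strand, to TATAAA (the core of a TATA box), to GGGCGG (the core of a GC box) and to CCAAT (the core of a CAAT box). None of these motifs contains another.
Kcnj8 (chr6:142571565-142571864, minus strand): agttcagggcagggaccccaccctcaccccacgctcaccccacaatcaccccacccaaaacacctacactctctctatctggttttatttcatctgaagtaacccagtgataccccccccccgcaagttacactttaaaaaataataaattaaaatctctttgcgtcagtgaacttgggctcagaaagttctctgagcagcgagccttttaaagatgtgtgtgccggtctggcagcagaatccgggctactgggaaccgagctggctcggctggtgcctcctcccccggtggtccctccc
Abcc9 (chr6:142702225-142702524, minus strand): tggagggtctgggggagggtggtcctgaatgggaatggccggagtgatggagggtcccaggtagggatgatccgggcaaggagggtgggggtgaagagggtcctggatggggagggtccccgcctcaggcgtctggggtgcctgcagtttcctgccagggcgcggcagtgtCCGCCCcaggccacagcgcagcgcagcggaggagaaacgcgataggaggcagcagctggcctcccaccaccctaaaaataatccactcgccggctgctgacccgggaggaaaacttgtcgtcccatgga
Kcnj10 (chr1:172340960-172341259, plus strand): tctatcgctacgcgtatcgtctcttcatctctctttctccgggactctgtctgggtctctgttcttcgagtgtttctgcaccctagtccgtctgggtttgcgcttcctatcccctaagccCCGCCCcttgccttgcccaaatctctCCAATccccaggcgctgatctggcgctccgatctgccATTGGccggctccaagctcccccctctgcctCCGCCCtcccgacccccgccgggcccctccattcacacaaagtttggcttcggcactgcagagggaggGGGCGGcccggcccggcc
Kcnj2 (chr11:111065914-111066213, plus strand): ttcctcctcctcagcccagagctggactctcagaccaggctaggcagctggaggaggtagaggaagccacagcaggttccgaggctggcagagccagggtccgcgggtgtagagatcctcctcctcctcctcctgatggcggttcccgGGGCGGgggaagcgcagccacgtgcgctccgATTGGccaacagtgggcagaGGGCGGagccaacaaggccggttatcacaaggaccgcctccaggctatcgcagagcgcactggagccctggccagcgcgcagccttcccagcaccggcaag
The Kcnj8 window held 0 of these matches and 9 CG dinucleotides, and the Abcc9 window held 1 GGGCGG match and 16 CG. The Kcnj10 window held 3 GGGCGG and 2 CCAAT matches with 21 CG, and the Kcnj2 window 2 GGGCGG and 1 CCAAT match with 18 CG. Over all 27025 promoters of this length 14.2% held TATAAA, 35.9% GGGCGG and 37.9% CCAAT, and the median was 7 CG. Of the 58 promoters found for the potassium channel genes, 3 held TATAAA, 30 GGGCGG and 20 CCAAT. These are letter matches, not sites shown to be bound.

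Kcnj10 and Kcnj16, the pores of the glial inward rectifier that carries potassium uptake, were highest in astrocytes. Kcnj10 had 230, 220 and 205 CPM in astrocytes, against 70.4, 60.7 and 59.7 CPM in OPC, and at most a mean of 6.31 CPM in neuroblasts, Cajal-Retzius cells, microglia, endothelium and pericytes. Its log2 difference was 3.70 ± 0.11 for astrocytes against the other classes (limma, adjusted p = 4.21e-15) and 1.64 ± 0.14 for astrocytes against OPC (adjusted p = 1.95e-08). The 27 oligodendrocytes had 68.7, 194 and 142 CPM, of which the first lay among the OPC values and the other two between OPC and astrocytes. Kcnj16 had 120, 120 and 123 CPM in astrocytes and 40.6, 36.3 and 49.3 CPM in OPC, with log2 differences of 3.18 ± 0.08 for astrocytes against the others (limma, adjusted p = 1.14e-15) and 1.34 ± 0.11 against OPC (adjusted p = 8.8e-09). It was listed at 0 in oligodendrocytes, where a count of 0 among 27 cells allows up to 11.1% of cells with a count above 0, which is not a limit on cells that express the gene. In astrocytes both genes were detected together in 38%, 34.9% and 38.2% of cells, and Kcnj10, with or without Kcnj16, was found in 68.6% of astrocytes and in 3.13% of microglia. It was also found in 277 of 897, 291 of 1079 and 213 of 784 OPC. Among oligodendrocytes it was found in 3 of 8, 7 of 8 and 8 of 11 cells. Kcnj16 was found in 54.1%, 51.8% and 55.5% of astrocytes with Kcnj10 and in 31.0%, 38.5% and 40.8% of those without it. Kcnj10 and Kcnj16 were at 0 in all 72 Cajal-Retzius cells.

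Kcnj2, a strong inward rectifier, marked the endothelium. It had 59.0, 61.6 and 51.1 CPM in endothelium, and the next class, microglia, had 0.357, 2.98 and 1.04 CPM. Endothelium differed from the other classes by 2.70 ± 0.06 on the log2 scale (limma, adjusted p = 6.91e-17). Kcnj12, a close relative of Kcnj2, was not an endothelial gene: it had 35.8, 30.8 and 34.6 CPM in pericytes against 0, 0.522 and 0 CPM in endothelium, and pericytes differed from the other classes by 1.99 ± 0.19 (limma, adjusted p = 4.84e-08). Oligodendrocytes had 155, 178 and 50.7 CPM of Kcnj12, each above every pericyte library, while OPC had 2.25, 0.668 and 1.11 CPM. Because only 8, 8 and 11 oligodendrocytes were in the libraries, they were left out of the 7-class fit and compared in a second fit of all 8 classes, chosen after the class sizes were seen. There Kcnj12 was higher in oligodendrocytes than in the other classes by 3.20 ± 0.25 and than in OPC by 3.45 ± 0.33 on the log2 scale (limma, adjusted p = 2.03e-09 and 5.22e-08).

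Of the inward rectifiers that G proteins open, Kcnj5, Kcnj9 and Kcnj3 were highest in Cajal-Retzius cells and Kcnj6 was not. Kcnj5 had 75.3, 112 and 89.5 CPM in Cajal-Retzius cells, and the highest mean elsewhere was 0.239 CPM, in astrocytes. It was detected in 55.6% of Cajal-Retzius cells (43.4 to 67.3%), and its log2 difference was 3.33 ± 0.07 (limma, adjusted p = 3.01e-17). Kcnj9 and Kcnj3 had 15.1, 16.0 and 17.8 CPM and 5.01, 15.9 and 17.9 CPM in Cajal-Retzius cells, and both fell below the filter for the test. Kcnj11, the neuronal ATP-sensitive pore, had 25.1, 15.9 and 27.1 CPM in Cajal-Retzius cells and a mean of at most 0.656 CPM in any other class. The values of Kcnj9, Kcnj3 and Kcnj11 rest on 8, 5 and 11 cells with a count above 0. Kcnj6 was at 0 in Cajal-Retzius cells and had 3.08, 3.11 and 4.36 CPM in astrocytes and 1.67, 2.84 and 2.72 CPM in OPC. Kcnj4, a strong inward rectifier known from neurons, was also at 0 in Cajal-Retzius cells, and had 0, 17.1 and 24.5 CPM in oligodendrocytes, from 3 cells, with a mean of at most 0.339 CPM elsewhere.

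**Figure D3:**
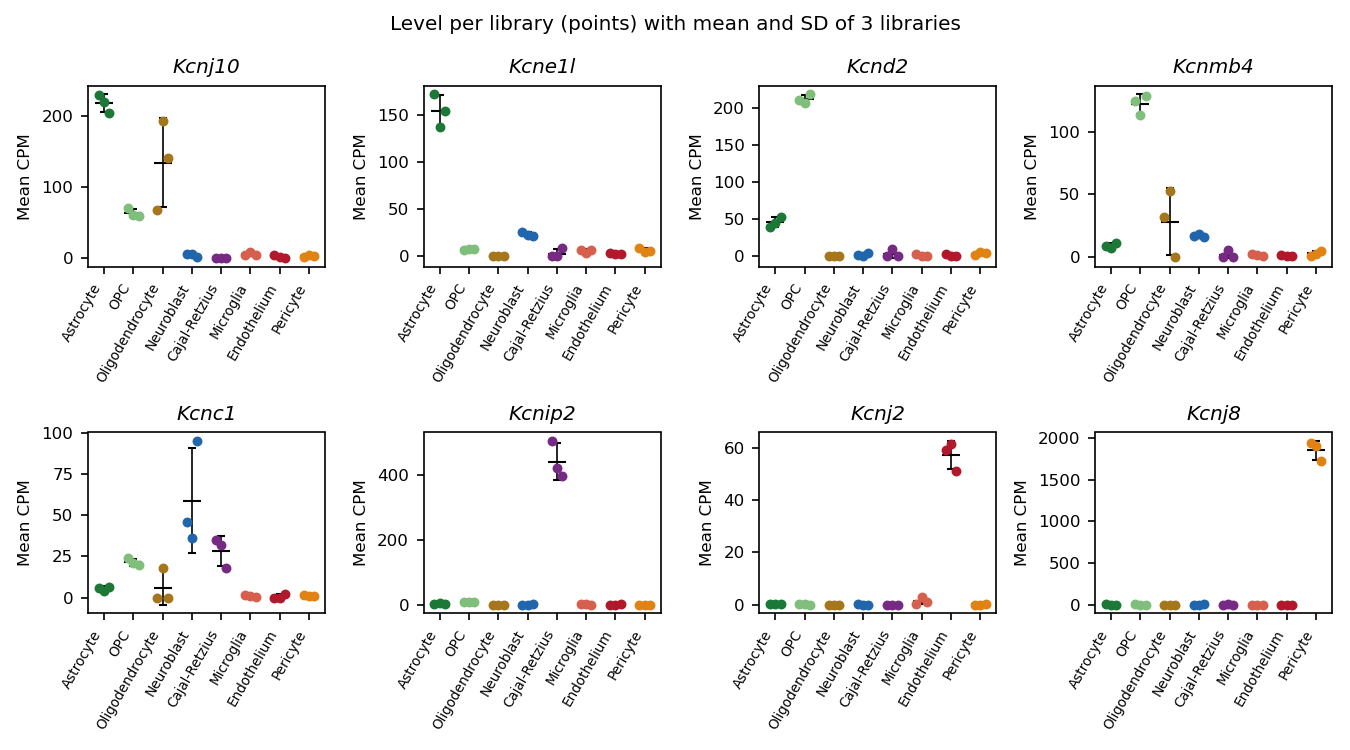
Level in CPM of 8 potassium channel genes in each library (points) of the 8 cell classes, with the mean and SD of 3 libraries as bars. Kcnj8 reaches 1728 to 1941 CPM in pericytes, Kcnip2 397 to 507 CPM in Cajal-Retzius cells and Kcnj2 51.1 to 61.6 CPM in endothelium, while Kcnc1 in neuroblasts runs from 36 to 95.3 CPM.

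Of the voltage-gated genes, the A-type pore Kcnd2, its subunit Kcnip3 and its partner Dpp6 were highest in OPC, while Kcnip1, Kcnip2 and Kcnip4, subunits of the same channels, were highest in Cajal-Retzius cells. Kcnd2 had 210, 207 and 218 CPM in OPC and 39.2, 45.2 and 52.7 CPM in astrocytes, and at most a mean of 3.63 CPM in the other classes. OPC were above the other classes by 3.81 ± 0.17 on the log2 scale (limma, adjusted p = 1.74e-12), and astrocytes were below OPC by a log2 difference of -2.0 ± 0.22 (adjusted p = 5.27e-07). Kcnip3, a calcium-binding subunit of the Kcnd channels, had 315, 286 and 296 CPM in OPC and 160, 166 and 161 CPM in astrocytes, with neuroblasts next at 24.9, 38.5 and 17.8 CPM. It was called higher both in OPC, by 3.55 ± 0.13 (limma, adjusted p = 9.81e-14), and in astrocytes, by 2.56 ± 0.13 (adjusted p = 6.68e-12), and it was at 0 in Cajal-Retzius cells and oligodendrocytes. Dpp6, the transmembrane partner of the same channels, had 168, 159 and 174 CPM in OPC and a mean of at most 20.1 CPM elsewhere, a log2 difference of 3.45 ± 0.14 (limma, adjusted p = 7.15e-13). Kcnd2 and Kcnip3 were detected together in 51.3%, 42.4% and 51.5% of OPC, and Kcnip3 was found in 79.9%, 69.0% and 75.5% of OPC with Kcnd2 and in 71.3%, 69.8% and 73.5% of those without it, shares that lay close to each other in libraries 2 and 3. Kcnd3, the second pore of the group, was higher in OPC by 1.67 ± 0.21 (limma, adjusted p = 1.81e-06), with 51.3, 45.5 and 45.8 CPM, against 19.0, 24.2 and 38.2 CPM in neuroblasts and 24.3, 23.2 and 23.7 CPM in astrocytes. Kcnd2, Kcnd3 and Kcnip3 were all listed at 0 in the 27 oligodendrocytes, where OPC were at 211, 47.5 and 299 CPM on average.

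The Kcna genes, whose products include the delayed rectifiers of axons, divided among the classes. Kcna1 was found mainly in the oligodendrocyte lineage, with 71.9, 35.0 and 47.5 CPM in oligodendrocytes, 34.0, 30.6 and 45.8 CPM in OPC and a mean of at most 0.347 CPM in any other class. Oligodendrocytes and OPC overlapped, and in the 7-class fit OPC exceeded the others by 2.20 ± 0.07 (limma, adjusted p = 1.04e-14). Kcna2 had 137, 211 and 50.1 CPM in oligodendrocytes, 41.4, 40.6 and 50.2 CPM in astrocytes and 33.1, 30.5 and 34.4 CPM in OPC, and the lowest oligodendrocyte library lay at the level of the highest astrocyte library. The log2 difference of oligodendrocytes from OPC was 1.55 ± 0.27 (limma, adjusted p = 8.7e-05). Kcna6 had 172, 191 and 190 CPM in Cajal-Retzius cells and 42.1, 29.6 and 40.3 CPM in OPC, against 1.17, 0.937 and 1.68 CPM in neuroblasts. Cajal-Retzius cells exceeded the other classes by 3.41 ± 0.09 (limma, adjusted p = 5.23e-16), and neuroblasts lay below the other classes by a log2 difference of -1.39 ± 0.09 (adjusted p = 4.11e-10). Kcna4, an A-type pore, had 95, 80.2 and 63.2 CPM in Cajal-Retzius cells, a mean of 4.85 CPM in OPC and at most 0.275 CPM elsewhere.

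The 4 genes with the largest log2 differences in Cajal-Retzius cells were a Kcnh pore, a Kcnb pore and 2 Kcnip subunits. Kcnip2 had 507, 423 and 397 CPM in Cajal-Retzius cells and a mean of at most 8.88 CPM in another class, in OPC; its log2 difference was 5.22 ± 0.08 (limma, adjusted p = 4.58e-19). Kcnh7, an ether-a-go-go related channel, had 415, 417 and 344 CPM in Cajal-Retzius cells, against 23.0, 17.0 and 21.6 CPM in neuroblasts, the next class, and its log2 difference from the other classes was 4.78 ± 0.09 (limma, adjusted p = 7.91e-18). Kcnh7 was above 0 in 98.6% of Cajal-Retzius cells (92.5 to 100%) and in 0.491% of microglia (0.212 to 0.966%), and Kcnip2 in 95.8% (88.3 to 99.1%) and 0.430% (0.173 to 0.884%). In the next class of each gene, Kcnh7 was above 0 in 92 of 773, 36 of 423 and 59 of 610 neuroblasts, and Kcnip2 in 50 of 897, 43 of 1079 and 38 of 784 OPC. Both were found together in 93.1%, 96.3% and 93.8% of the 29, 27 and 16 Cajal-Retzius cells. Kcnb2, a delayed rectifier, had 280, 203 and 270 CPM in Cajal-Retzius cells and 17.6, 21.4 and 24.3 CPM in OPC, and its log2 difference was 4.30 ± 0.10 (limma, adjusted p = 5.95e-17). Kcnip4 had 160, 118 and 207 CPM in Cajal-Retzius cells and a mean of at most 3.78 CPM elsewhere, a log2 difference of 3.89 ± 0.09 (limma, adjusted p = 9.46e-17). The Kcnip family thus separated by class, Kcnip3 being high in OPC and astrocytes, and Kcnip2 and Kcnip4 in Cajal-Retzius cells. Kcnip1 had 110, 69.2 and 117 CPM in Cajal-Retzius cells and 33.0, 33.6 and 38.6 CPM in OPC, and was called higher in both, by 2.79 ± 0.13 (limma, adjusted p = 8.18e-13) and 1.34 ± 0.13 (adjusted p = 5.74e-08).

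Kcnc1, a fast delayed rectifier of inhibitory neurons, was 1 of 2 genes called higher in neuroblasts, by 1.93 ± 0.17 (limma, adjusted p = 1.7e-08). Its level was 45.6, 36 and 95.3 CPM in neuroblasts, 34.8, 31.9 and 18 CPM in Cajal-Retzius cells and 23.9, 20.7 and 19.8 CPM in OPC, so that library 3 of the neuroblasts stood apart, and the lowest neuroblast library lay close to the highest Cajal-Retzius one. The 3 genes of dividing cells (Top2a, Mki67 and Cenpf) summed to 1130, 1189 and 468 CPM in neuroblasts, so that the library with the highest Kcnc1 had the lowest sum, and the part of this in the call was not tested. Kcnc2 was instead high in Cajal-Retzius cells, with 85.0, 53.3 and 72.8 CPM against a mean of at most 3.29 CPM in another class. Of the M-current genes, Kcnq5 varied widely in Cajal-Retzius cells, at 50.1, 42.6 and 9.17 CPM, and Kcnq3 at 10.1, 21.3 and 45.0 CPM; without library 3 the Kcnq3 mean of 25.5 CPM became 15.7 CPM. In oligodendrocytes Kcnq3 had 15.4, 104 and 37.0 CPM, against 12.7, 10.6 and 11.3 CPM in OPC, a log2 difference of 1.26 ± 0.35 (limma, adjusted p = 0.0048). That call was lost without library 2, where the log2 difference was 0.65 (limma, adjusted p = 0.178) and the oligodendrocyte mean was 26.2 CPM in place of 52.3 CPM. Kcnq1, best known from heart and epithelia, was high in endothelium, with 50.5, 51.0 and 39.8 CPM against a mean of at most 1.32 CPM elsewhere, and its log2 difference was 2.45 ± 0.07 (limma, adjusted p = 7.52e-16).

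Kcnma1, the pore of the large-conductance calcium-activated channel, and its auxiliary subunit Kcnmb2 were highest in Cajal-Retzius cells, while Kcnmb1 was highest in pericytes and Kcnmb4 in OPC. Kcnma1 had 90.1, 117 and 98.9 CPM in Cajal-Retzius cells and 28.0, 28.5 and 35.0 CPM in OPC, but 0.647, 0 and 0.861 CPM in pericytes. Kcnmb1, the subunit known from smooth muscle, had 76.0, 68.6 and 80.0 CPM in pericytes and a mean of at most 1.23 CPM elsewhere, a log2 difference of 3.03 ± 0.06 (limma, adjusted p = 2.96e-17). Pericytes were thus at the top for the subunit and near 0 for the pore, and Kcnma1 was at 0 in the pericyte class cells with smooth muscle genes in all 3 libraries. Kcnmb1 averaged 95 ± 7.55 CPM in the pericyte class cells with smooth muscle genes and 69.0 ± 6.46 CPM in those without (SD, n = 3 libraries), a difference described and not tested. Kcnmb2 was high in Cajal-Retzius cells, with 85.2, 96.3 and 90.2 CPM, and Kcnmb4 in OPC, with 124, 113 and 129 CPM against 9.01, 6.62 and 11.4 CPM in astrocytes. The next classes for Kcnmb4 were oligodendrocytes, with a mean of 28.2 CPM, and neuroblasts, with 16.9 CPM. OPC exceeded the other classes in Kcnmb4 by 3.19 ± 0.12 (limma, adjusted p = 1.81e-13), and astrocytes lay below OPC by a log2 difference of -2.80 ± 0.16 (adjusted p = 6.38e-11). Of the small-conductance channels, Kcnn2 had 62.9, 56.3 and 62.5 CPM in astrocytes and 35.3, 25.3 and 37.6 CPM in neuroblasts, and a mean of at most 6.27 CPM elsewhere. It was called higher in astrocytes by 2.18 ± 0.12 (limma, adjusted p = 1.92e-11) and in neuroblasts by 1.32 ± 0.12 (adjusted p = 1.82e-08). Kcnn3 had 25.9, 24.7 and 30.5 CPM in astrocytes and at most a mean of 3.73 CPM elsewhere, below the filter for the test.

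Of the Kcne subunits, single-pass proteins that modify voltage-gated pores, Kcne1l and Kcne4 were tested. Kcne1l had 173, 138 and 154 CPM in astrocytes and 26.1, 22.5 and 21.2 CPM in neuroblasts, against 6.72, 7.85 and 7.64 CPM in OPC. Its log2 difference was 3.29 ± 0.14 for astrocytes against the other classes (limma, adjusted p = 6.13e-13) and 3.24 ± 0.18 against OPC (adjusted p = 5.49e-11), the largest of the potassium channel genes in that pair of classes. Kcne4 had 100, 88.0 and 74.5 CPM in pericytes, and the highest mean elsewhere was 0.513 CPM, in OPC; its log2 difference was 3.24 ± 0.07 (limma, adjusted p = 1.72e-17). As with Kcnj8, it was lower in the pericyte class cells with smooth muscle genes, at 51.4 ± 9.33 CPM, than in those without, at 98.3 ± 13.1 CPM (SD, n = 3 libraries). Among the silent subunits, which do not form channels alone, Kcng2 had 31.7, 23.1 and 15.9 CPM in endothelium and Kcng1 10.9, 9.44 and 11.6 CPM in pericytes, both below the filter. Kcna5, a delayed rectifier, had 23.1, 19.5 and 13.2 CPM in endothelium.

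Microglia had 0 genes called higher. Kcnip3 had 11.0, 11.7 and 10.6 CPM in microglia, and Kcnd1, an A-type pore, had 7.07, 5.88 and 9.49 CPM and was detected in 3.87% of microglia (2.99 to 4.92%). The lowest genes against the mean of the other classes were Kcna6, Kcnh7 and Kcnj8, at log2 differences of -1.46 ± 0.09, -1.26 ± 0.09 and -1.24 ± 0.11 (limma, adjusted p = 1.42e-10, 1.56e-09 and 2.5e-08). Each of these is a gene with a high level in another class. When values were centred on the median gene, Kcna6 was still called, at -1.16, and Kcnh7 and Kcnj8 were not, at -0.96 and -0.94. Kcna3, the channel often studied in immune cells, was below 1 CPM in every class, with its highest mean, 0.339 CPM, in OPC. Kcnq1ot1, the long antisense RNA of the Kcnq1 locus, was the only potassium channel gene above 50 CPM in microglia and was found in every class, at 63.6 CPM in endothelium, 70.4 CPM in microglia, 72.0 CPM in pericytes, 130 CPM in astrocytes, 131 CPM in neuroblasts, 134 CPM in oligodendrocytes, 223 CPM in OPC and 250 CPM in Cajal-Retzius cells. The libraries of endothelium, microglia and pericytes overlapped, and so did those of astrocytes, neuroblasts and oligodendrocytes, and those of OPC and Cajal-Retzius cells. The order within each of these groups is therefore not beyond the spread.

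Direct comparisons were made between 3 pairs of classes in the 7-class fit, and oligodendrocytes were compared with OPC in the 8-class fit, given below. In astrocytes against OPC 4 of 36 genes were called higher and 8 lower, where 6.9% and 8.54% of all genes were (15.4% together). The 4 were Kcne1l, Kcnn2, Kcnj10 and Kcnj16, and among the 8 were Kcnmb4, Kcna1, Kcnd2, Kcnip1, Kcnb2 and Kcnc1, with log2 differences of -1.02 to -2.80 (limma). Kcnd3, Kcnip3 and Kcna2 were not among those called. In pericytes against endothelium 4 were higher and 2 lower, where 9.35% and 8.64% of all genes were (18% together), shares close to the background. Kcnj8, by 7.35 ± 0.15, Kcne4, by 3.25 ± 0.09, Kcnmb1, by 3.00 ± 0.08, and Kcnj12, by 2.10 ± 0.25, were higher in pericytes, and Kcnj2, at -2.73 ± 0.08, and Kcnq1, at -2.33 ± 0.09, were lower. In Cajal-Retzius cells against neuroblasts 17 were higher and 4 lower, where 20% and 12% of all genes were (32% together). Kcnip2 led at 5.37 ± 0.11 (limma, adjusted p = 2.89e-17), then Kcnb2, Kcna6 and Kcnip4 at 4.13, 4.11 and 4.01. The 4 lower in Cajal-Retzius cells were Kcnn2, at -1.67 ± 0.15, Kcne1l, at -1.43 ± 0.18, Kcnmb4, at -1.23 ± 0.16, and Kcnip3, which was at 0 in Cajal-Retzius cells.

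**Figure D4:**
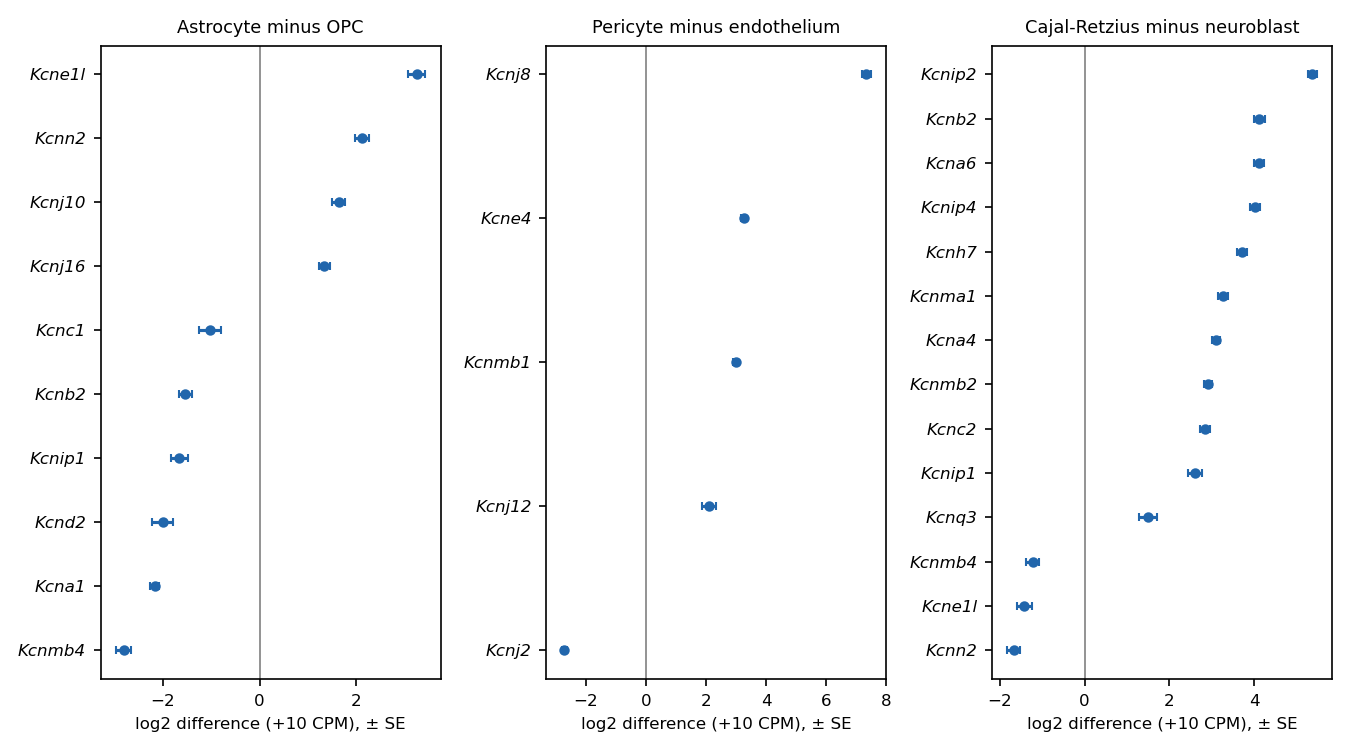
Log2 difference (points, on log2(CPM + 10)) with its SE (bars) of the potassium channel genes that average at least 50 CPM in a class and were called between astrocytes and OPC, pericytes and endothelium, and Cajal-Retzius cells and neuroblasts, leaving out those at 0 in either class. Positive values are higher in the first class of a pair: Kcnj8 stands at 7.35 in pericytes against endothelium, and Kcnmb4 at -2.80 in astrocytes against OPC.

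Oligodendrocytes against the other classes had 5 of 38 genes higher and 10 lower, where 9.72% and 24% of all 11914 genes in the 8-class fit were, and 6 higher and 1 lower once values were centred on the median gene. Both directions together made 15, where 33.7% of all genes were called. The 5 were Kcnj12, Kcna2, Kcnj10, Kcna1 and Kcnq3. Against OPC 3 were higher and 12 lower, where 7.14% and 29.1% of all genes were (36.3% together), and 7 higher and 10 lower after centring. With 27 cells, 63 of the 82 genes were listed at 0 in oligodendrocytes, which says only that they were not detectable at this number of cells.

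Neighbouring genes did not always share a class. Within 100000 bases of each other in GRCm38.p6, RefSeq places 12 pairs of 2 potassium channel genes, of the 81 of 82 with a position. On chromosome 11, Kcnj16 and Kcnj2 are 38195 bases apart and were highest in astrocytes and in endothelium. On chromosome 6, Kcna1 and Kcna6 are 62526 bases apart, and of the 7 classes of the main fit were highest in OPC and in Cajal-Retzius cells. On chromosome 1, Kcnj9 and Kcnj10 are 11887 bases apart and were highest in Cajal-Retzius cells and in astrocytes. On chromosome 7, Kcnj11 and its receptor gene Abcc8, 3570 bases apart, were both highest in Cajal-Retzius cells, at 22.7 and 13.3 CPM on average. Kcnip1 and Kcnmb1 overlap on chromosome 11 and differed in class, Cajal-Retzius cells for the first and pericytes for the second. Kcnmb4 overlaps both Kcnmb4os1 and Kcnmb4os2, Kcnd3 overlaps Kcnd3os, and Kcnq1 overlaps Kcnq1ot1. The sources used here do not state whether counting used strand, so the reads of these 5 overlapping pairs cannot be told apart with certainty.

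**Figure D5:**
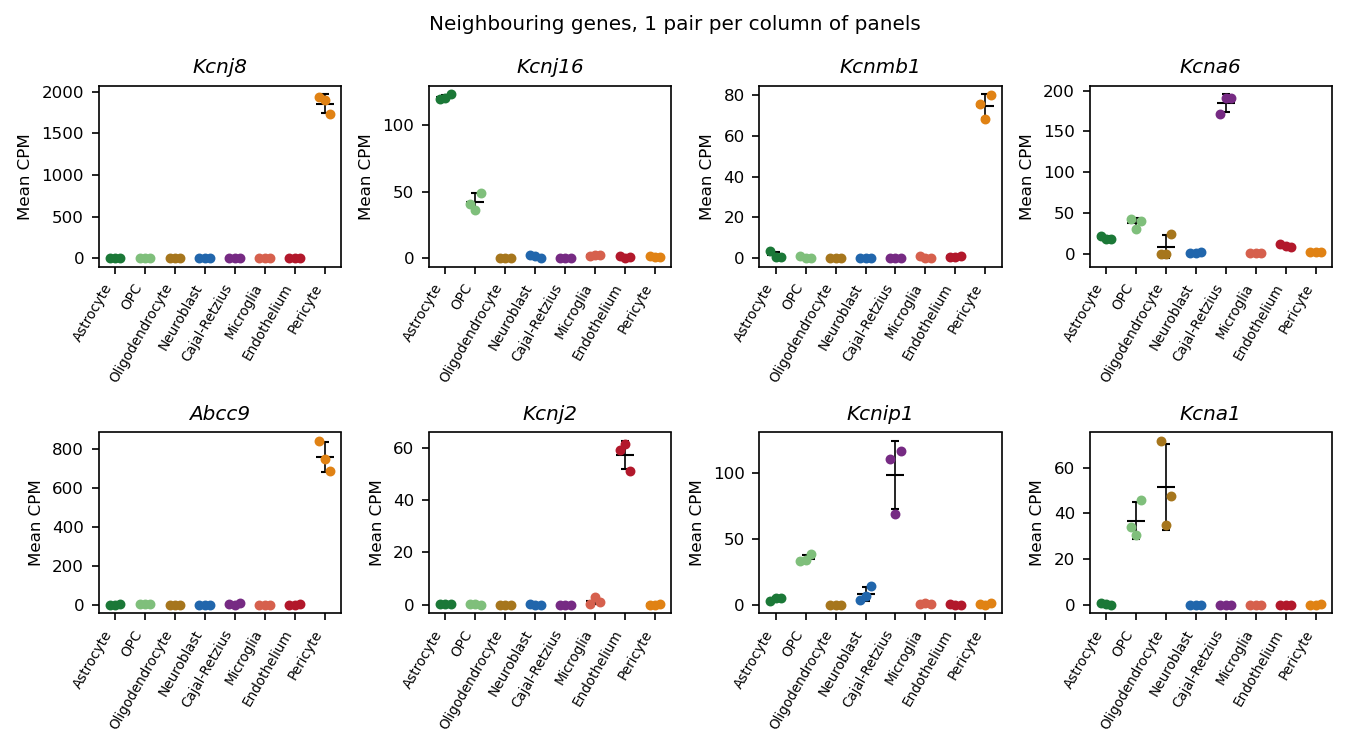
Level in CPM of 4 pairs of neighbouring genes, 1 pair in each column of panels, across the 8 cell classes, with a point for each library and the mean and SD of 3 libraries as bars. Kcnj8 and Abcc9 share their highest class, pericytes, while Kcnj16 and Kcnj2 have theirs in astrocytes and in endothelium.

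Other genes of potassium handling were read from 4 lists. Their counts stand beside shares of all genes called higher and lower of 10.1% and 4.65% in astrocytes, 10.8% and 3.91% in OPC, 6.98% and 11.7% in neuroblasts, 17.4% and 14.5% in Cajal-Retzius cells, 8.13% and 14.6% in microglia, 11.2% and 12.3% in endothelium and 8.85% and 6.84% in pericytes, and with 3 to 9 genes tested in a list 1 gene is a large share of it. Of 16 partner genes of the channels 9 were tested, and 3 were called higher and 1 lower in astrocytes, 3 and 2 in OPC, 0 and 4 in neuroblasts, 4 and 1 in Cajal-Retzius cells, 1 and 3 in microglia, 0 and 5 in endothelium and 2 and 2 in pericytes. Cntnap2, which gathers Kcna channels at axons, had 410, 432 and 512 CPM in Cajal-Retzius cells and was higher by 4.70 ± 0.12 (limma, adjusted p = 2.4e-16). Of 10 genes of the sodium pump, which restores the potassium gradient, 9 were tested, and 5 were called higher and 1 lower in astrocytes, 4 and 0 in OPC, 2 and 4 in neuroblasts, 4 and 3 in Cajal-Retzius cells, 1 and 4 in microglia, 1 and 6 in endothelium and 3 and 3 in pericytes. Of 4 HCN channel genes, whose cation channels also pass potassium, 3 were tested, and all 3 were called higher in Cajal-Retzius cells, 1 lower in microglia, and 0 in astrocytes, OPC, neuroblasts, endothelium and pericytes. Hcn4 and Hcn2 were higher in Cajal-Retzius cells by 2.30 ± 0.13 and 1.93 ± 0.08 (limma, adjusted p = 1.22e-11 and 2.79e-13). Of 5 potassium-chloride and related cotransporters 4 were tested, and 1 was called higher in each of astrocytes, Cajal-Retzius cells, microglia and pericytes, and 1 lower in each of neuroblasts, Cajal-Retzius cells and endothelium. Slc12a2, which brings potassium and chloride into the cell, had 241, 233 and 206 CPM in pericytes, against 5.01, 0 and 8.87 CPM in Cajal-Retzius cells, and the 27 oligodendrocytes had 531, 671 and 459 CPM.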

How the data were processed

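The deposited table holds natural log values, ln(1 + a whole number): all 34958786 values above 0 were whole, within 1e-06, once the log was undone. These whole numbers behave as depth-corrected counts; how the authors made the correction is not given in the sources used here, and the depth before it is unknown. CASAVA 1.8, Cell Ranger, Seurat and the build mm10 are named in the submitters' processing notes. The labels' protocols speak of flash freezing and Trizol, which does not say how cells were obtained.

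Each cell was scaled to CPM, and cells of a class were averaged per library. Limma 3.58.1 in R 4.3.3 was run on log2(mean + 10 CPM), modelling the mean-variance trend and taking library as a replicate block, since the classes of a library come from the same sample. Genes averaging at least 5 CPM entered, and classes needed 10 cells in every library, which 7 had (12 residual degrees of freedom). The spread is pooled over classes of unequal size, down to 16 Cajal-Retzius cells in library 3. A second fit, chosen after the class sizes were seen, took in oligodendrocytes (14 residual degrees of freedom). The adjustment ran over all genes tested. The test was checked on simulated data. Doublets were treated by dropping cells of 2 classes; Scrublet (scanpy 1.11.5) called 120, 78 and 89 cells, which were removed in an alternative alone. Named are members averaging at least 50 CPM in a class and, per comparison, the 4 called members most higher and the 3 most lower, with 2 genes per list; other members were named after their values were seen. Some genes are not reported here. The members, the lists (channel partners, sodium pump, HCN channels, cotransporters) and the comparisons were chosen with earlier results of these data known. Intervals are exact (Clopper-Pearson, 95%), a count of 0 allows a share of 3 counts of the total, and neither takes in more than counting error.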

Additional observations from a re-analysis of the deposited data

Results flagged for a closer look

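The 2012 cells that met no class rule were outside every comparison, and 2 potassium channel genes averaged over 50 CPM in them. Kcnip3 had 44.4, 59.1 and 50.8 CPM in the 3 libraries, a mean of 51.4 CPM, between the levels of neuroblasts and astrocytes. Kcnq1ot1 had 117, 141 and 124 CPM, a mean of 127 CPM, near its level in astrocytes. What these cells are was not tested.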

How the results depend on the processing

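Of 142 alternative counts of called potassium channel genes, 127 stayed within 1.5 times the reported count. Of the 72 reported differences of 23 named genes none reversed in an alternative that tested the gene. Without library 1, 70 stayed called, and without library 3, 68 stayed called and 2 fell below the threshold. The others had no value there, since the gene did not pass the filter. With 1 CPM added in place of 10, which draws weak genes less toward 0, the counts were 18 in astrocytes (reported 10), 24 in OPC (15), 22 in neuroblasts (6), 25 in microglia (9), 31 in endothelium (16), 28 in pericytes (14), 33 in oligodendrocytes (15), 21 for astrocytes against OPC (12) and 27 for oligodendrocytes against OPC (15), and most named log2 differences grew. The counts over all genes moved by over 1.5 times in 9 of the 12 comparisons too: 22.9% to 59.1% of all genes were called with 1 CPM, and 14.7% to 36.3% with 10 CPM. In the order of the counts above, 50%, 66.7%, 61.1%, 69.4%, 86.1%, 77.8%, 86.8%, 58.3% and 71.1% of the potassium channel genes tested were called with 1 CPM. The matching shares of all genes were 27.2%, 28.5%, 36.9%, 42.4%, 40%, 29.6%, 59.1%, 22.9% and 52.8%. Centring on the median gene gave 1 in microglia, 10 in endothelium and 7 in oligodendrocytes; it moved the median of all genes nearer to 0 in 8 of the 12 comparisons, most in oligodendrocytes against OPC (0.10, where it was -0.48), and farther from 0 in astrocytes (-0.16, where it was -0.03), Cajal-Retzius cells (-0.20, where it was 0.02), pericytes (-0.08, where it was -0.07) and Cajal-Retzius cells against neuroblasts (-0.27, where it was 0.13). Adding oligodendrocytes to the fit gave 5 in microglia, 9 in endothelium and 9 in pericytes, where the mean that each class is set against holds 1 more class. Without the replicate block of library the counts were 10 in astrocytes, 15 in OPC and 26 in Cajal-Retzius cells, and no count of any comparison moved by over 1.5 times. Nor did any when low genes were kept, sums were pooled, Scrublet doublets were removed or both marker genes had to reach 2. The same held without the pericyte class cells with smooth muscle genes. Leaving out 1 library gave 22 to 26 in Cajal-Retzius cells, 12 to 14 in OPC, 8 to 11 in astrocytes and 11 to 14 in pericytes. Of the alternative values of named differences, 17 fell below the threshold, 16 of them lower calls that moved to log2 differences between -0.80 and -1; the other is Kcnq3 in oligodendrocytes against OPC without library 2, given above. The 72 Cajal-Retzius cells and 27 oligodendrocytes limit what those classes can show.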
